A study of Homo sapiens with 19 samples.

Results

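The EMT transcription factors are 6 DNA-binding repressors and activators, ZEB1, ZEB2, SNAI1, SNAI2, TWIST1 and TWIST2, that are known for driving the epithelial-to-mesenchymal transition, in which epithelial cells lose adherens junctions and become motile. They were taken by symbol from the per-gene read counts of 19 RNA-seq libraries, where each matched 1 Ensembl identifier, so that 6 of the 44717 genes listed for any library are described here. Total RNA depleted of ribosomal RNA was sequenced from 501Mel, a human melanoma line, and from Hermes 3A, an immortal but untransformed human melanocyte line kept in medium with TPA, cholera toxin, stem cell factor and endothelin-1. In 501Mel, cells carrying an shRNA against BRG1 (shBRG1, n = 3), the ATPase of the SWI/SNF remodeller encoded by SMARCA4, had scramble controls called shSCR1 (n = 3), and cells carrying an shRNA against the melanocyte regulator MITF (shMITF, n = 2) had separate controls called shSCR2 (n = 2). In Hermes 3A, 1 scramble group (shSCR, n = 3) served shBRG1 (n = 3) and shMITF (n = 3), so both comparisons in that line share control libraries. All 19 libraries come from cells infected with an shRNA lentivirus and selected, each target was silenced with 1 shRNA, and nothing in the labels says that replicates were separate cultures, so the p-values measure the spread between these libraries, which may be technical.

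In the melanocyte lineage the 6 factors do not act as 1 programme. ZEB2 and SNAI2 are known genes of normal, pigmented melanocytes and of differentiated melanoma cells, whereas ZEB1 and TWIST1 are known from invasive, dedifferentiated melanoma cells. The ZEB proteins are zinc finger and homeodomain repressors, the SNAI proteins (Snail and Slug) are zinc finger repressors, and the TWIST proteins are basic helix-loop-helix factors that pair with the E proteins TCF3, TCF4 and TCF12. All 6 bind E boxes, and the ZEB and SNAI proteins are best known for repressing CDH1, which encodes E-cadherin.

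RefSeq start-site windows of 300 bases (build GRCh38.p14) were at hand for ZEB1, ZEB2 and TWIST2. TWIST1, SNAI1 and SNAI2 are named only. Because MITF binds E boxes of the form CACGTG or CATGTG, these words were searched on both strands. CACGTG was in none of the windows of these 3 genes, while CATGTG or its reverse complement CACATG was in the single ZEB2 window and in 1 of the 7 ZEB1 windows. Among all 35116 windows of this length, 7.26% held CACGTG and 11.1% held CATGTG on either strand. CACCTG, a form bound by ZEB and SNAI proteins, or its reverse complement CAGGTG was in 2 of the ZEB1 windows and in 20.6% of all windows. The 30 bases around the matches are shown for the ZEB member that fell and the ZEB member that rose in 501Mel, with the matches in capitals. The first stretch lies at chr2:144520282-144520311 on the minus strand, 180 bases before the ZEB2 start at the first capital, and all 30 bases are exonic in other GENCODE transcripts there. The other lies at chr10:31321613-31321642 on the plus strand, with matches 40 and 29 bases before a ZEB1 start, and has 22 exonic bases.
ZEB2: cgatcacgttttCACATGatgctcacgctc
ZEB1: ctgacgaCATGTGtgtgaCATGTGagtctg
The third stretch belongs to TWIST2, the member nearly confined to 1 of the lines, and is the 197 bases at chr2:238847835-238848031 (plus strand) that precede every annotated TWIST2 exon. Neither MITF word occurs in the TWIST2 window. The capitals mark a CCAAT box, which 34.6% of all windows held on either strand.
TWIST2: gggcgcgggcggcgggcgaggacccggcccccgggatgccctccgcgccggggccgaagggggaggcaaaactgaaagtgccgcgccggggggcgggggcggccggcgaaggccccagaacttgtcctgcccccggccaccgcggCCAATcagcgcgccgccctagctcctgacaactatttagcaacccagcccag
A match describes letters only, and binding was not measured here.

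Libraries held between 29158502 and 78857900 counts, and levels are given in CPM, counts scaled to a common library size of 1e+06, on 1 TMM scaling over all 19 libraries. The silenced genes were lower in the libraries labelled so than in their own controls: SMARCA4 stood at 178 to 193 CPM in 501Mel shSCR1 against 35.8 to 40.6 in shBRG1, and at 227 to 255 in Hermes 3A shSCR against 44.4 to 47.5 in shBRG1. MITF stood at 1048 to 1186 CPM in 501Mel shSCR2 against 494 to 546 in shMITF, and at 1014 to 1119 in Hermes 3A shSCR against 456 to 719 in shMITF, where its fall of 0.85 on the log2 scale (edgeR adjusted p = 0.019) was short of the fold limit used for calls. MITF was at 513 to 609 CPM in 501Mel shSCR1, a range that the shMITF libraries overlap, and fell to 191 to 218 in shBRG1 (-1.55), below both shMITF libraries. All 12 melanocyte marker genes reached a mean of at least 1 CPM in every group. The Hermes 3A shMITF libraries scattered most, with a biological coefficient of variation of 28.1% against 5.45% in shSCR and 5.86% in shBRG1. In 501Mel it was 16.2% in shSCR2 and 16.8% in shMITF, against 4.52% in shSCR1 and 4.65% in shBRG1.

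By GENCODE 29 on GRCh38, ZEB1 (ENSG00000148516) lies at chr10:31318495-31529814 on the plus strand, ZEB2 (ENSG00000169554) at chr2:144364364-144524583 on the minus strand and SNAI1 (ENSG00000124216) at chr20:49982999-49988886 on the plus strand. SNAI2 (ENSG00000019549) lies at chr8:48917604-48921740 and TWIST1 (ENSG00000122691) at chr7:19020991-19117672, both on the minus strand, and TWIST2 (ENSG00000233608) at chr2:238848032-238910543 on the plus strand.

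ZEB2, the most abundant member in counts, did not pass the test between Hermes 3A shSCR and 501Mel shSCR1, TWIST1 and SNAI2 were higher in Hermes 3A melanocytes, SNAI1 was higher in 501Mel, TWIST2 was nearly confined to Hermes 3A and ZEB1 was near 0 in both. Against the other 501Mel controls, shSCR2, the ranges of SNAI2 overlapped and ZEB2 differed. Since CPM grows with transcript length, members are compared with each other per kilobase of the longest coding transcript. On that scale 501Mel shSCR1 held TWIST1 at 54.2 ± 2.8 CPM per kilobase (SD, n = 3), ZEB2 at 41.7 ± 0.96, SNAI2 at 13.1 ± 0.37 and SNAI1 at 4.34 ± 0.23. Hermes 3A shSCR held TWIST1 at 142 ± 7.6, SNAI2 at 56.4 ± 2.5, ZEB2 at 43.2 ± 1.0, TWIST2 at 1.49 ± 0.033 and SNAI1 at 0.345 ± 0.14. Counted over all exons of ZEB2, whose models are long (25058 bases against 9583 for the longest coding transcript), its level was lower, 15.9 in shSCR1 and 16.5 in Hermes 3A shSCR.

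**Figure D1:**
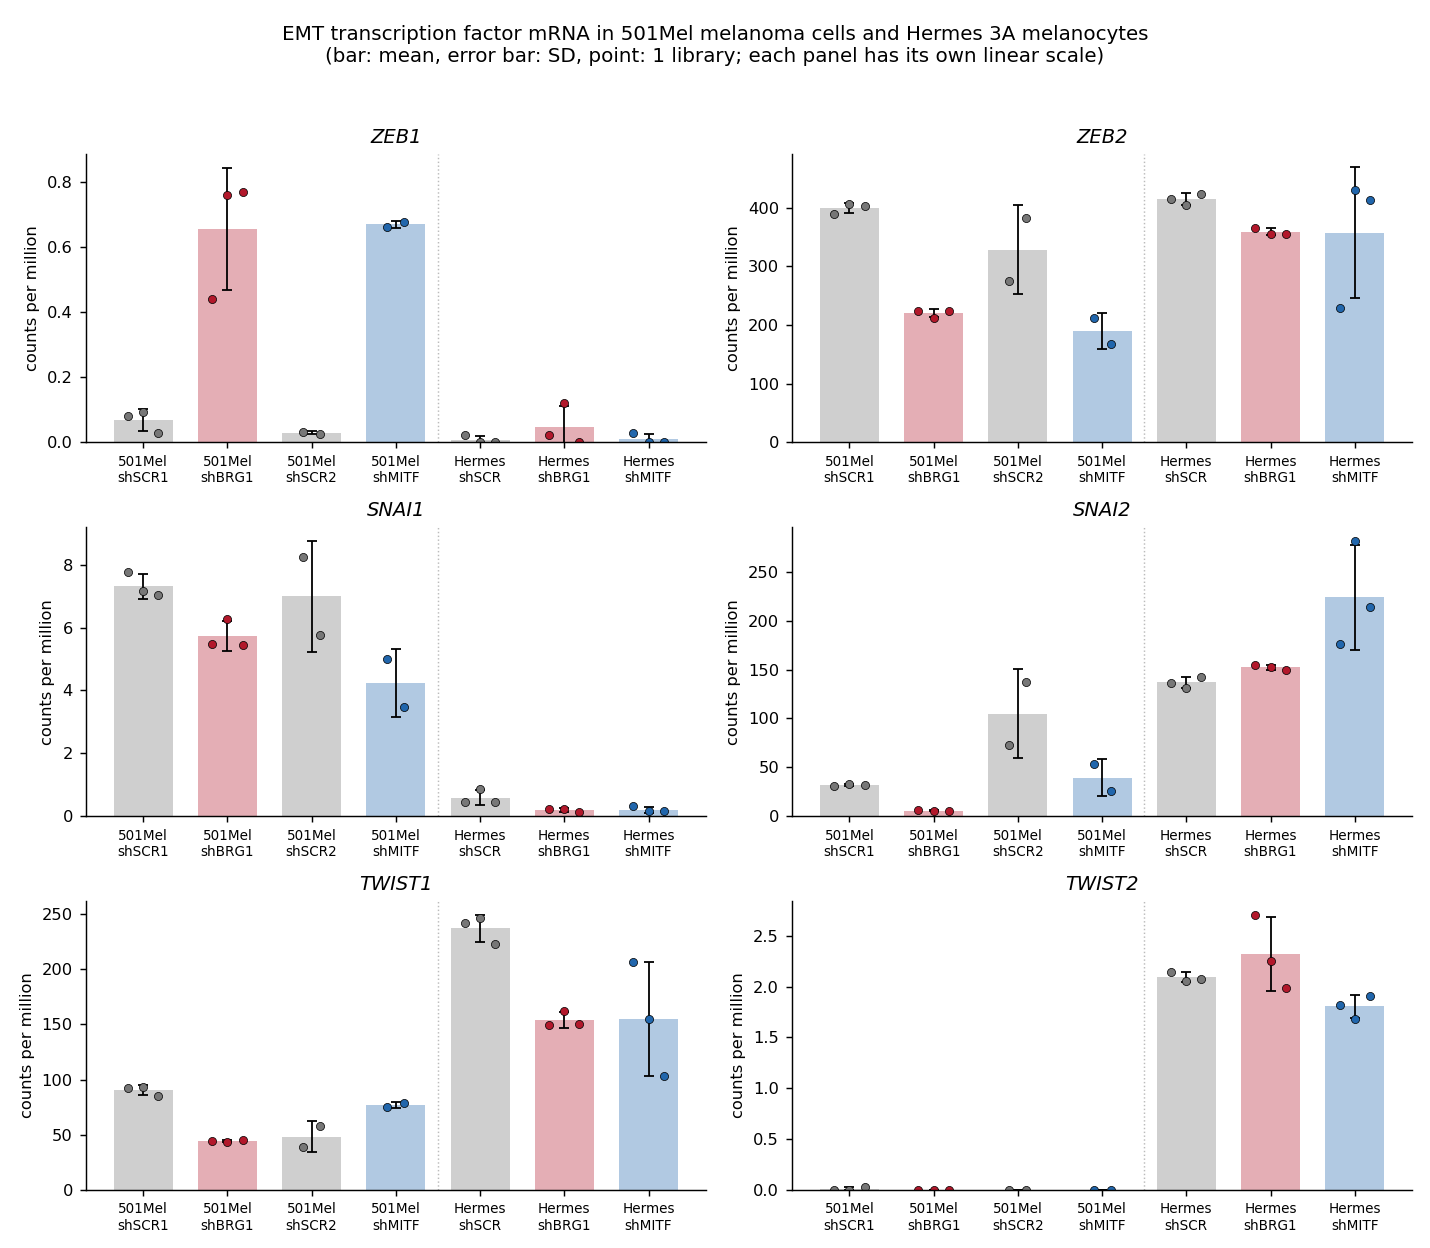
CPM of each member (vertical axes, linear, 1 scale per panel) in the 7 groups, with the mean as a bar, the SD as an error bar and each library as a point; scramble controls are grey, shBRG1 red and shMITF blue. ZEB1 stays below 0.8 CPM everywhere, ZEB2 lies between 168 and 430.1 CPM, and TWIST2 has points off the axis in Hermes 3A only, apart from 1 count in 501Mel shSCR1.

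The comparison of the lines asked how the factors differ between control 501Mel and control Hermes 3A cells. Each side is 1 line in its own medium, so melanoma and melanocytes in general are not compared. SNAI2 (Slug, a survival factor of the melanocyte lineage) was at 31.0, 32.7 and 31.5 CPM in 501Mel shSCR1 and at 137, 131 and 143 in Hermes 3A shSCR. TWIST1 was at 92.5, 93.6 and 85.0 CPM in shSCR1 and at 242, 247 and 223 in Hermes 3A. Neither gene's groups overlapped, and both were higher in Hermes 3A, with log2 fold changes of 2.11 ± 0.051 (SE) for SNAI2 and 1.39 ± 0.052 for TWIST1 (edgeR quasi-likelihood test with Benjamini-Hochberg adjustment, adjusted p = 9.6e-22 and 7.1e-18). SNAI1 (Snail) went the other way, at 7.76, 7.15 and 7.03 CPM in shSCR1 and 0.434, 0.852 and 0.457 in Hermes 3A, a log2 fold change of -3.70 ± 0.18 (adjusted p = 2.2e-15). ZEB2 was at 389, 406 and 403 CPM in shSCR1 and 415, 404 and 424 in Hermes 3A, ranges that overlap, with a log2 fold change of 0.056 ± 0.043 (adjusted p = 0.23) and a 95% interval from -0.028 to 0.14. With an adjusted p below 0.05 and an absolute log2 fold change above 1 as the call, SNAI2 and TWIST1 were called higher and SNAI1 lower in Hermes 3A, where 41.4% of all 18731 genes tested were called (18.2% higher and 23.1% lower). TWIST2 was called too, but it passed the filter on low counts only through Hermes 3A, where it is high, so its call is not counted here. Against shSCR2 in place of shSCR1 the SNAI2 difference was 0.39 (adjusted p = 0.25) and no longer called, and that of ZEB2 was 0.35 (adjusted p = 0.023).

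TWIST2, a relative of TWIST1 known from dermal and bone-forming mesenchyme, gave 1 read in all 10 libraries of 501Mel, in shSCR1 replicate 3. The Hermes 3A libraries gave 94, 70 and 91 reads in shSCR, 125, 130 and 86 in shBRG1 and 64, 53 and 52 in shMITF. The rate in Hermes 3A shSCR was 284 times that in 501Mel shSCR1, with an exact 95% interval for counting error from 50.6 to 11273, and at least 72.7-fold higher than in shSCR2, taking 3 counts over the group as the limit that 0 allows. Beside this, the 8 genes of the fibroblast marker list summed to 383 to 604 CPM in the Hermes 3A libraries and to 7.17 to 21.7 in those of 501Mel. In Hermes 3A shSCR the level rested mainly on FAP, at a mean of 321 CPM, none of the 8 was at 0 throughout, and 3 reached 1 CPM. The part of these genes in the TWIST2 result was not tested.

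ZEB1 was low in all libraries, and its reads are therefore given as counts. Controls held 4, 5 and 1 reads in 501Mel shSCR1, 1 and 2 in shSCR2, and 1, 0 and 0 in Hermes 3A shSCR. The 501Mel knockdowns held 26, 44 and 39 reads with shBRG1 and 30 and 35 with shMITF, more than any control library. In Hermes 3A there were 1, 7 and 0 reads with shBRG1 and 1, 0 and 0 with shMITF. The rate was 8.82 times that of shSCR1 in 501Mel shBRG1 (exact 95% counting interval from 4.62 to 18.9) and 23.2 times that of shSCR2 in shMITF (7.60 to 116), at levels of 0.440 to 0.770 CPM. Reads are not independent molecules, so these intervals cover counting error only.

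**Figure D2:**
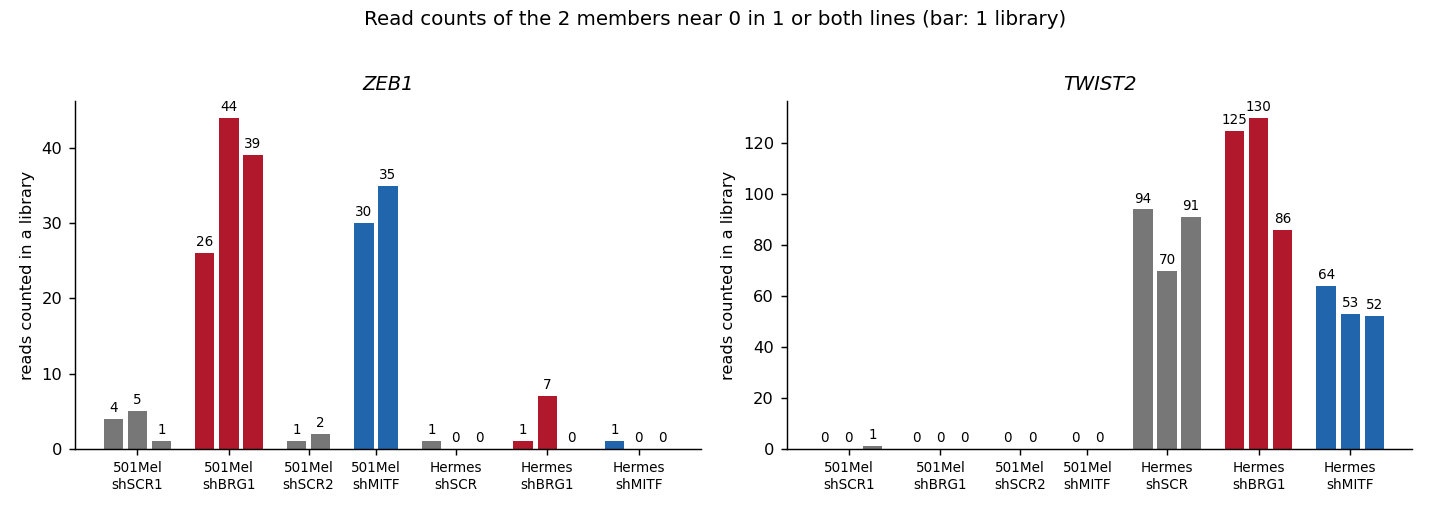
Reads counted for ZEB1 (left) and TWIST2 (right) in each library, 1 bar per library with its count above it, grouped along the horizontal axis by line and shRNA. ZEB1 has 26 to 44 reads in the 5 silenced 501Mel libraries and 0 to 7 elsewhere, and TWIST2 has 52 to 130 reads in Hermes 3A and 0 or 1 in 501Mel.

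BRG1 silencing in 501Mel lowered SNAI2, TWIST1, ZEB2 and SNAI1 by adjusted p alone, at which 80.3% of all genes differed and 39.1% were lower. SNAI2 fell furthest, from 31.0, 32.7 and 31.5 CPM to 5.88, 5.51 and 5.45, a log2 fold change of -2.56 ± 0.068 (adjusted p = 4.6e-20). TWIST1 fell from 92.5, 93.6 and 85.0 CPM to 44.3, 43.5 and 44.9, a log2 fold change of -1.10 ± 0.050 (adjusted p = 1.2e-15). The 3 silenced libraries of each gene lay close together and below every shSCR1 library, although the lower of the shSCR2 libraries, at 38.3 CPM, was below all of them for TWIST1. ZEB2 fell from 389, 406 and 403 CPM to 223, 212 and 225, which is -0.92 ± 0.046 on the log2 scale (adjusted p = 7.1e-15) and short of the fold limit. SNAI1 fell less, from 7.76, 7.15 and 7.03 CPM to 5.49, 6.28 and 5.43 (-0.42 ± 0.090, adjusted p = 2.1e-04). For ZEB1 the fit gave 3.04 ± 0.41 on the log2 scale (adjusted p = 4.7e-07). It passed the filter on low counts only through the silenced group, so a difference was built into its being tested and it is not counted as a call. TWIST2 did not pass. Leaving ZEB1 aside, SNAI2 and TWIST1 were called, both lower, where 39.1% of 20514 genes were called (21.7% higher and 17.4% lower). TWIST1 lay near the fold limit and was not called when scaled by library sizes alone (-0.75), under a filter of 10 counts in each sample (-0.97) or when both scramble groups formed the control (-0.76, adjusted p = 0.049), and SNAI1 was at -0.068 (adjusted p = 0.49) with library sizes alone.

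MITF silencing in 501Mel gave a different set of values with wider errors, from 2 libraries a group. By adjusted p alone, which 20.5% of all genes passed, ZEB2 fell and TWIST1 rose. ZEB2 went from 275 and 382 CPM in shSCR2 to 212 and 168 in shMITF, a log2 fold change of -0.75 ± 0.17 (adjusted p = 0.017). TWIST1 went from 38.3 and 58.3 CPM to 74.8 and 78.8 (0.71 ± 0.19, adjusted p = 0.031). Neither gene's groups overlapped. SNAI2 was at 72.5 and 137 CPM in shSCR2 and at 53.0 and 25.8 in shMITF, without overlap but with a wide spread in both groups (-1.38 ± 0.44, adjusted p = 0.095). SNAI1 was at 8.24 and 5.75 CPM and then at 4.99 and 3.47 (-0.69 ± 0.30, adjusted p = 0.14). For ZEB1 the fit gave 4.46 ± 0.60 (adjusted p = 0.0018), but it again passed the filter through the silenced group only and is not counted. No other member passed both limits in this edgeR fit or with DESeq2, where 8.99% of 17701 genes did (5.59% higher and 3.4% lower). At an unadjusted p below 0.05, all 4 of the others passed. With all groups of the line in 1 edgeR fit, SNAI2 was called lower as well. Over the alternatives that kept all libraries its value ran from -1.41 to -0.61. SNAI1 ran from -0.74 to -0.59 over them and passed on adjusted p alone in some. The ZEB2 test lost significance without shSCR2 replicate 2 (-0.52, adjusted p = 0.054) or shMITF replicate 2 (-0.63, adjusted p = 0.059). That of TWIST1 lost it without shSCR2 replicate 1 (0.43, adjusted p = 0.090) or shMITF replicate 2 (0.64, adjusted p = 0.12) and was 0.092 (adjusted p = 0.89) with shSCR1 added to the control. Without shSCR2 replicate 2, TWIST1 was itself called (1.02, adjusted p = 9.6e-04).

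**Figure D3:**
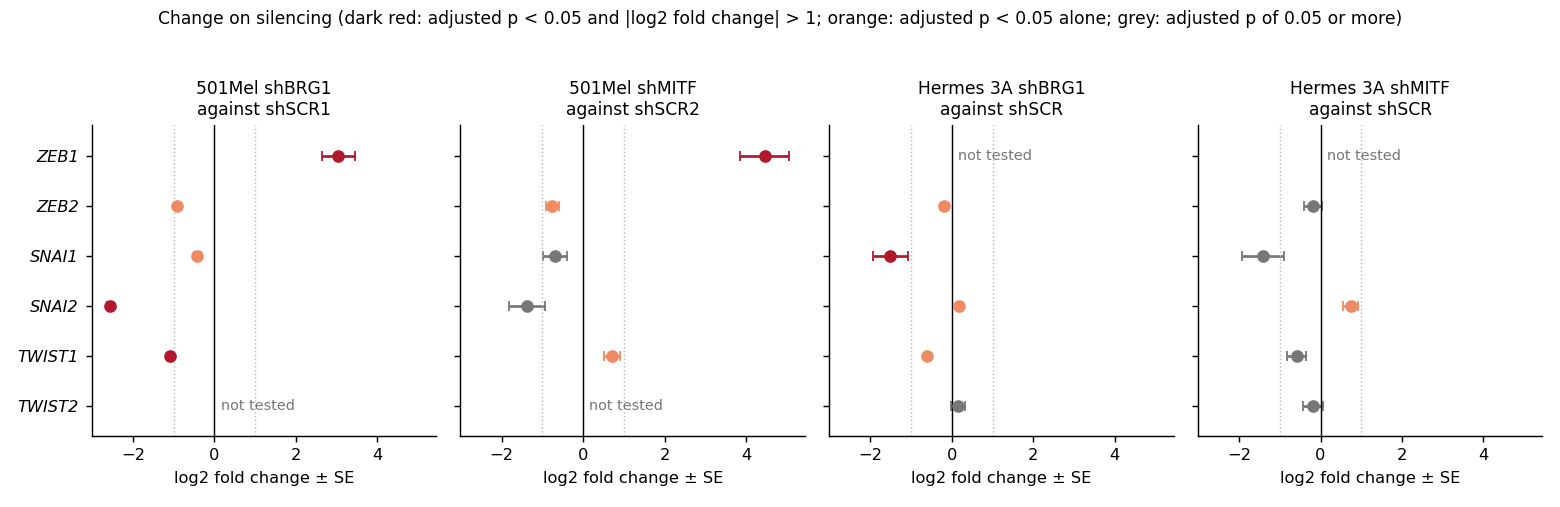
Log2 fold change of each member (horizontal axis, shared by the panels) on silencing, with its standard error, in the 4 comparisons; dotted lines mark -1 and 1, and colours give the test as stated above the panels. In 501Mel shBRG1 the values run from -2.56 for SNAI2 to 3.04 for ZEB1, while in Hermes 3A SNAI1 alone lies beyond -1. ZEB1 in 501Mel and SNAI1 in Hermes 3A passed the filter on low counts through the group where they are high. A difference was thus built into their being tested, also where they are coloured as calls.

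The 501Mel scramble groups themselves differed for these genes. SNAI2 was higher in shSCR2 than in shSCR1, 72.5 and 137 against 31.0 to 32.7 CPM (log2 fold change 1.74 ± 0.24, adjusted p = 0.0010), and TWIST1 was lower, 38.3 and 58.3 against 85.0 to 93.6 CPM (-0.89 ± 0.16, adjusted p = 0.0016). Neither gene's groups overlapped. ZEB2 (-0.27 ± 0.12, adjusted p = 0.066) and SNAI1 (-0.069 ± 0.17, adjusted p = 0.73) did not pass. One member was called, where 33% of 19056 genes were, and 69.8% of genes passed on adjusted p alone. Without shSCR2 replicate 2, SNAI2 was at 1.22 and TWIST1 at -1.22, both called. TWIST1 in shMITF, at 74.8 and 78.8 CPM, was above its own controls and below those of shBRG1, and SNAI2 in shMITF, at 53.0 and 25.8 CPM, spanned the shSCR1 level.

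Compared within 501Mel, each against its own controls, the effect of shBRG1 on TWIST1 was lower than that of shMITF (edgeR interaction of -1.77 ± 0.18 on the log2 scale, adjusted p = 3.2e-06). This value includes the difference between the control groups, which for TWIST1 was -0.89 (shSCR2 against shSCR1). The part of the controls in it was not tested. TWIST1 was the 1 member to differ, where 48.1% of 22255 genes did at an adjusted p below 0.05. The difference was -1.15 ± 0.47 for SNAI2 (adjusted p = 0.080), -0.14 ± 0.16 for ZEB2 (adjusted p = 0.50, 95% interval from -0.47 to 0.18) and 0.29 ± 0.25 for SNAI1 (adjusted p = 0.38). SNAI2 passed without shSCR2 replicate 2 (-1.70, adjusted p = 0.027) or shMITF replicate 2 (-1.54, adjusted p = 0.020), and ZEB2 without shSCR2 replicate 2 (-0.41, adjusted p = 0.016).

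In Hermes 3A, BRG1 silencing moved the members little apart from SNAI1 and TWIST1. SNAI1 fell from 0.434, 0.852 and 0.457 CPM in shSCR to 0.238, 0.225 and 0.116 in shBRG1, a log2 fold change of -1.52 ± 0.43 (adjusted p = 0.0036). Its libraries did not overlap, but they rest on 19, 29 and 20 reads against 11, 13 and 5, and the gene passed the filter through shSCR, the group where it is high, so a fall was built into its being tested. TWIST1 fell from 242, 247 and 223 CPM to 149, 162 and 151 (-0.61 ± 0.045, adjusted p = 2.1e-12), and ZEB2 slightly, from 415, 404 and 424 to 366, 355 and 355 (-0.19 ± 0.038, adjusted p = 7.9e-05). SNAI2 rose slightly, from 137, 131 and 143 CPM to 154, 153 and 149 (0.17 ± 0.041, adjusted p = 9.5e-04). TWIST2 was at 2.15, 2.06 and 2.08 CPM and then at 2.71, 2.25 and 1.99, ranges that overlap (0.16 ± 0.17, adjusted p = 0.45, 95% interval from -0.17 to 0.49). Apart from SNAI1 no member passed the fold limit, where 9.26% of 17222 genes were called (5.78% higher and 3.47% lower) and 56.9% passed on adjusted p alone. With all groups of the line in 1 fit, which takes in the scattered shMITF libraries, ZEB2 (adjusted p = 0.52), SNAI2 (adjusted p = 0.48) and TWIST1 (adjusted p = 0.0505) did not pass.

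MITF silencing in Hermes 3A left 0 members called with edgeR, where 7.39% of 16508 genes were (3.35% higher and 4.04% lower), and 0 with DESeq2, while 3 had an unadjusted p below 0.05. SNAI2 rose by adjusted p alone, which 17% of genes passed, from 137, 131 and 143 CPM in shSCR to 176, 282 and 214 in shMITF, with no overlap (0.74 ± 0.18, adjusted p = 0.026). The test lost significance without any 1 of the shSCR libraries or without shMITF replicate 3 (adjusted p from 0.0503 to 0.129). TWIST1 was lower in every silenced library, 207, 155 and 103 CPM against 223 to 247, but the libraries spread widely (-0.59 ± 0.23, adjusted p = 0.11). SNAI1, which passed the filter through shSCR here as well, was at 0.313, 0.159 and 0.147 CPM (-1.42 ± 0.52, adjusted p = 0.094). ZEB2 was at 229, 430.1 and 413 CPM, replicate 1 standing far below the controls and the others among them (-0.19 ± 0.23, adjusted p = 0.62). TWIST2 was at 1.82, 1.68 and 1.91 CPM against 2.06 to 2.15 (-0.19 ± 0.24, adjusted p = 0.64). Without shMITF replicate 1, ZEB2 was at 0.041 (adjusted p = 0.78), TWIST1 fell by 0.86 on the log2 scale (adjusted p = 0.013) and SNAI1 was called (-1.87, adjusted p = 0.0497). Set against each other, Hermes 3A shBRG1 and shMITF differed for 0 of the 4 members tested with edgeR and 0 with DESeq2, 1 having an unadjusted p below 0.05, where 5.81% of 16927 genes were called. SNAI2 came nearest, at -0.57 ± 0.18 (adjusted p = 0.069).

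Whether a knockdown acted alike in both lines was tested as an interaction. The effect of shBRG1 differed between lines for 4 of the 6 members, where 57.9% of 21697 genes differed at an adjusted p below 0.05 (24.8% positive and 33.1% negative). It was lower in 501Mel than in Hermes 3A for SNAI2 (-2.76 ± 0.075, adjusted p = 9.1e-28), ZEB2 (-0.76 ± 0.060, adjusted p = 6.3e-14) and TWIST1 (-0.52 ± 0.067, adjusted p = 1.7e-08), and higher for SNAI1 (1.04 ± 0.35, adjusted p = 0.0097). The SNAI1 difference did not pass without Hermes 3A shSCR replicate 2 (0.70, adjusted p = 0.093) or shBRG1 replicate 3 (0.79, adjusted p = 0.065). TWIST2 was near 0 in 501Mel and ZEB1 in the controls of both lines, which leaves their differences undetermined. For shMITF, SNAI2 alone differed (-2.13 ± 0.45, adjusted p = 0.029), where 2.99% of 19284 genes did. It did not pass without shSCR2 replicate 2, 501Mel shMITF replicate 2 or any 1 Hermes 3A shSCR library (adjusted p from 0.073 to 0.11), nor without the filter on low counts (-2.16, adjusted p = 0.15) or with replicate numbers as a block (-2.06, adjusted p = 0.079). Without Hermes 3A shMITF replicate 1, 3 members passed, ZEB2 (-0.81, adjusted p = 0.037) and TWIST1 (1.55, adjusted p = 0.012) among them. TWIST1 was at 1.29 ± 0.34 in the full data (adjusted p = 0.068).

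Genes on the opposite strand share exon bases with 3 members, and the strand setting of the counting is not given in the sources used here, so their reads cannot be told apart from those of the member. ZEB1-AS1 held 3, 2 and 0 reads in 501Mel shSCR1 and 19, 11 and 18 in shBRG1 (log2 fold change 2.82 ± 0.57, edgeR adjusted p = 9.2e-05). Like ZEB1, it passed the filter on low counts only through the silenced group, so a rise was built into its being tested. It held 1 and 4 reads in shMITF against 0 and 1 in shSCR2. ZEB2-AS1 amounted to between 0.022% and 0.53% of the ZEB2 counts. AC003986.2 amounted to between 0.70% and 10.3% of the TWIST1 counts.

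The genes around the members were grouped by role. Their counts are to be read against the shares of all tested genes called higher and lower, which were 21.7% and 17.4% in 501Mel shBRG1, 5.59% and 3.4% in 501Mel shMITF, 5.78% and 3.47% in Hermes 3A shBRG1, and 3.35% and 4.04% in Hermes 3A shMITF. The lists were not tested against these shares or each other. Counts and shares include genes that passed the filter on low counts only through the group where they are high. CLDN1 and CDH2 in 501Mel shBRG1 are among them. The E proteins and ID genes regulate TWIST activity, since ID proteins sequester E proteins. ID3 rose in all 4 comparisons, with log2 fold changes of 3.57 and 2.28 in 501Mel shBRG1 and shMITF and 1.51 and 2.50 in Hermes 3A (adjusted p at most 0.0054). ID2 rose in 501Mel (3.25 and 1.75), and was at -0.38 and 0.13 in Hermes 3A. In all, 4 of 8 genes tested were called higher and 1 lower in 501Mel shBRG1, 4 of 8 higher in shMITF, 2 of 7 higher in Hermes 3A shBRG1 and 1 of 7 higher in shMITF. The medians were 1.17, 0.89, 0.42 and 0.43.

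Corepressors that SNAI and ZEB proteins recruit, among them CTBP1, CTBP2, HDAC1, HDAC2, KDM1A, RCOR1 and the Polycomb enzyme EZH2, made up the next list. In 501Mel shBRG1, 1 of 21 was called higher (LOXL2, a lysyl oxidase that binds Snail, 2.48) and 4 lower, among them RCOR1 (-1.57) and CTBP2 (-1.53). With shMITF in 501Mel RCOR1 was at -0.85 (adjusted p = 0.0038), short of the fold limit, and the list's median was -0.33. In Hermes 3A shBRG1 RCOR1 was the 1 called (-1.07), and in shMITF it was LOXL3 (1.42). Medians lay between -0.33 and 0.074. Of the 14 tested kinases, ubiquitin ligase parts and other regulators of SNAI and TWIST protein stability, 2 were called, both lower and both in 501Mel shBRG1: PRKD1 (-2.14), a kinase of Snail, and FBXL14 (-1.08), an F-box protein that targets Snail and Twist for degradation. The medians of this list lay between 0.028 and 0.12.

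Of the upstream TGF-β and SMAD genes in 501Mel shBRG1, 4 of 17 were called higher, SKIL (1.45) and the inhibitory SMAD6 (1.20) among them, and 4 lower, with the co-receptor TGFBR3 (-1.99) and the ligand TGFB2 (-1.89) at the lower end. These counts are near the shares of all genes called there (21.7% higher and 17.4% lower). TGFB2 fell in 501Mel shMITF as well (-4.87, adjusted p = 2.6e-04), from a mean of 245.5 reads to 7.5, whereas SMAD3 rose (1.97). There 3 of 17 were higher and 1 lower. INHBA, the activin A subunit, was called higher in Hermes 3A, by 3.38 on the log2 scale with shBRG1 and 2.72 with shMITF. In 501Mel it was at 1.08 with shBRG1 and 2.67 with shMITF. With 501Mel shMITF it was not among the calls with a mean of at least 100 counts. Of 17 genes tested in Hermes 3A, 1 was higher and 1 lower with shBRG1, and 2 higher and 1 lower with shMITF. The medians of this list were 0.35, 0.48, 0.062 and 0.31. Among 16 further factors of the transition, LEF1 rose in 501Mel with both knockdowns (1.41 and 1.32), TCF21 with shBRG1 (2.01), and FOXQ1 in Hermes 3A with both (2.59 and 3.60). In all, 3 of 11 tested were higher and 1 lower in 501Mel shBRG1, 1 of 5 higher in shMITF, 1 of 9 higher in Hermes 3A shBRG1 and 2 of 9 higher in shMITF, with medians of -0.16, -0.26, 0.25 and 0.83.

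Of the mesenchymal genes that the factors are known to accompany, 10 of 21 were called higher and 7 lower in 501Mel shBRG1 (21.7% and 17.4% of all genes), where the collagen COL5A1 rose (3.58) and the matrix protease MMP2 (-3.11) and COL6A1 (-2.45) fell. With 501Mel shMITF 5 of 19 were called, all higher, TAGLN (2.13) among them. In Hermes 3A 4 of 21 were higher with shBRG1 and 5 of 21 with shMITF, and CDH11 rose in both (2.14 and 2.95). Medians in the order 501Mel shBRG1, shMITF, Hermes 3A shBRG1 and shMITF were 0.86, 0.22, 0.55 and 0.59. Vimentin (VIM), the classical mesenchymal filament, was at 1091 to 1265 CPM in every 501Mel library and at 1830 to 2228 in every Hermes 3A library. Fibronectin (FN1) rose from 1548 to 1610 CPM in Hermes 3A shSCR to 2287, 3041 and 5078 in shMITF (1.17), and from 708 to 876 CPM in 501Mel shSCR1 to 1087 to 1203 in shBRG1 (0.52). In Hermes 3A shBRG1 FN1 was also higher, at 2364 to 2768 CPM, without overlap with shSCR. In 501Mel shMITF it was at 877 and 925 CPM, within the range of 660 to 928 in shSCR2.

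Epithelial targets, the genes that these factors repress elsewhere, were called in 501Mel shBRG1 at about the shares of all genes (21.7% higher and 17.4% lower), 5 of 23 higher and 4 lower. Elsewhere the counts were 6 of 18 higher in 501Mel shMITF, 4 of 20 higher in Hermes 3A shBRG1, and 1 of 18 higher and 2 lower in shMITF. In 501Mel shBRG1 the tight junction gene CLDN1 rose from a mean of 0.67 reads to 108.7, keratin KRT18 rose (2.67), and P-cadherin CDH3 (-1.78) and desmoplakin DSP (-1.79) fell. CLDN1 passed the filter on low counts only through the silenced group, so a rise was built into its being tested. The medians were 0.070, 0.70, 0.47 and 0.36. E-cadherin, which joins melanocytes to keratinocytes, was at 38.3, 40.5 and 38.5 CPM in Hermes 3A shSCR and at 1.99, 10.9 and 1.73 in shMITF (CDH1 log2 fold change -2.97 ± 0.63, adjusted p = 0.016), against 28.1 to 29.8 in shBRG1 (-0.42). N-cadherin CDH2 stood at 13.1 to 14.8 CPM in Hermes 3A shSCR, at 29.2, 33.4 and 49.8 in shMITF (1.45) and at 25.0 to 30.1 in shBRG1 (0.96). In 501Mel CDH1 lay between 0.485 and 2.95 CPM. CDH2 was called higher in 501Mel shBRG1 (2.60, edgeR adjusted p = 1.9e-05), but at a mean of 0.338 CPM against 0.0492. With 1 to 3 reads in the shSCR1 libraries, it too passed the filter only through the silenced group, so its call has the same limit.

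The state of the cells moved beside these values. Of 12 genes of the melanocyte state, 11 were called lower in 501Mel shBRG1, 2 in shMITF, 3 in Hermes 3A shBRG1 and 5 in shMITF. The list includes MITF, and the 2 in 501Mel shMITF were DCT and MITF (-1.06), the silenced gene itself. The medians were -2.76, -0.51, -0.82 and -0.81. DCT, a melanin enzyme, fell by 5.04, 2.82, 3.24 and 2.71 on the log2 scale. SOX10, the neural crest regulator upstream of MITF, fell from 464 to 496 CPM to 88.1 to 95.3 in 501Mel shBRG1 (-2.44). Of the genes of the dedifferentiated state, 11 of 14 were called higher and 1 lower in 501Mel shBRG1, with CTGF (4.01) and CYR61 (3.69), which code for matrix-associated growth factors, rising most. In the other comparisons 3 of 11 were higher in 501Mel shMITF, 4 of 15 higher and 1 lower in Hermes 3A shBRG1, and 3 of 15 higher and 1 lower in shMITF. The medians were 1.89, 1.34, 0.27 and 0.66. NGFR, the neurotrophin receptor of neural crest cells, rose in 501Mel shBRG1 (2.04) and in both Hermes 3A comparisons, by 1.63 with shBRG1. FOSL1, an AP-1 subunit, rose in 501Mel with both (2.26 and 1.68). As these are bulk samples, fewer cells of a state and less RNA per cell cannot be told apart. The fibroblast marker list summed to 18.4 to 21.7 CPM in 501Mel shBRG1 against 7.17 to 9.87 in shSCR1, and 5 of its 7 tested genes were called higher and 1 lower there. Of those tested, 2 of 5 were called higher in 501Mel shMITF (11.2 to 19.3 CPM summed against 10.4 to 11.5), 3 of 6 in Hermes 3A shBRG1 (414 to 422 against 383 to 411) and 3 of 6 in Hermes 3A shMITF (394 to 604). The part of these genes in the members' changes was not tested.

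**Figure D4:**
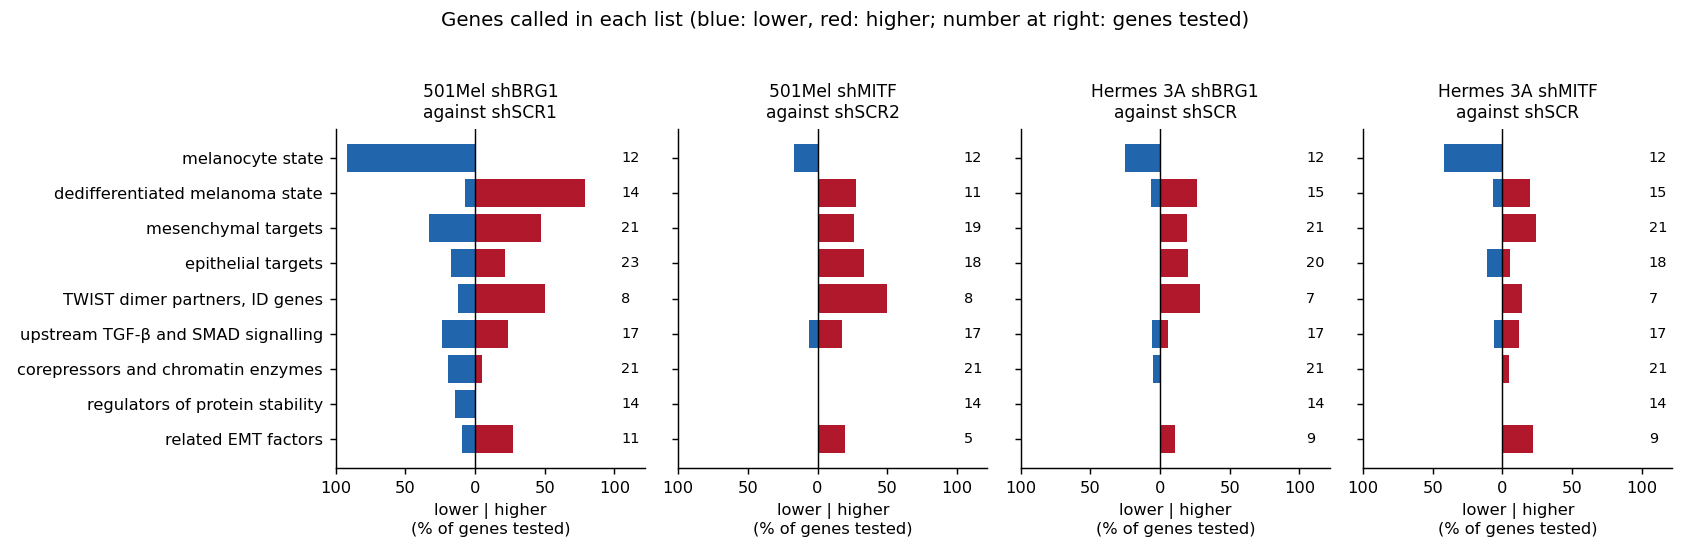
Percentage of the tested genes of each list called higher (red, to the right) or lower (blue, to the left) in the 4 comparisons, with the number tested at the right of each bar. The melanocyte state is on the lower side only in every panel, and the TWIST partner list has 4 of 8 genes on the higher side in both 501Mel panels. The melanocyte state list includes MITF, the gene that shMITF silences.

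The genes whose levels followed each member most closely were ranked by Pearson's r of log2(CPM + 1) over the 7 group means, among 16070 genes. With 7 points that share their scaling, high values are common, and r is a description only. ZEB2 was most like FLOT1 (r = 0.981), ECM1 (0.978) and PRDM7 (0.976). SNAI1 was most like EIF4A3, EME1 and PTBP2 (0.996 to 0.997), and SNAI2 like AGPS (0.997), ZFAT (0.996) and PAF1 (0.995). TWIST1 was most like ATP6V0A1 (0.987), GET3 (0.986) and SLC66A2 (0.984). TWIST2 was most like SLFN11, FBLN5 and TOX2 (each 0.9998 or more), which, like it, were near 0 in every 501Mel group and at 7.98 to 81.4 CPM in Hermes 3A. ZEB1 never reached 1 CPM and was left out. In the order of group means, the ZEB2 neighbours that did not overlap were 501Mel shSCR1 and Hermes 3A shBRG1, 501Mel shSCR2 and shBRG1, and 501Mel shBRG1 and shMITF. SNAI2 ran from 224 CPM in Hermes 3A shMITF to 5.61 in 501Mel shBRG1, and its Hermes 3A shSCR and 501Mel shSCR2 ranges overlapped, as did those of 501Mel shMITF and shSCR1. TWIST1 ran from 237 CPM in Hermes 3A shSCR to 44.2 in 501Mel shBRG1, where the range of shSCR2 reached below it.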

How the data were processed

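The authors deposited 1 table of raw read counts per gene for each of 19 libraries. Per the submitters' processing notes, CASAVA 1.8, TopHat 1.4.1, Bowtie 0.12.7 and hg19 were used; the counting program, annotation and strand setting are not given in the sources used here. Libraries were rRNA-depleted and treated with a duplex-specific nuclease, which lowers very abundant transcripts. Gene lists differed between groups: 33031 identifiers were listed for all 19 libraries. Symbols came from a separate reference of gene names and were found for 40913 of 44717 identifiers. GENCODE 29 (GRCh38) held models of 41130, used only for lengths, positions and overlapping genes.

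Each comparison was fitted on the deposited counts over all genes with the edgeR 4.0.16 quasi-likelihood test (R 4.3.3, TMM, filterByExpr, robust), on the groups compared. Calls needed an adjusted p below 0.05 and an absolute log2 fold change above 1, the study's limits, and interactions an adjusted p below 0.05. Intervals are 95%. Depths ran from 29158502 to 78857900 counts. DESeq2 1.42.0, other scalings and filters, a replicate block and 71 fits with 1 library left out were alternatives. In each of the 10 comparisons the fit was tested on simulated data. No pair of libraries of a group agreed within sampling noise. The members and lists were chosen with earlier results of these data known. Named list genes were, per comparison, at most 2 rising and 2 falling calls with a mean of at least 100 counts, plus CDH1, CDH2, VIM and FN1; others were named after their values were seen. Tables were handled with pandas 2.3.3. One gene that this rule names is not reported here.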

Additional observations from a re-analysis of the deposited data

Results flagged for a closer look

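The effects of both knockdowns differed between the lines for some members by a test of the difference itself, an interaction in the edgeR quasi-likelihood fit. For shBRG1 the effect in 501Mel minus that in Hermes 3A was -2.76 for SNAI2, -0.76 for ZEB2, -0.52 for TWIST1 and 1.04 for SNAI1 on the log2 scale. For shMITF it was -2.13 for SNAI2. That difference did not pass without some single libraries, without the filter on low counts or with the replicate block. At an adjusted p below 0.05, 57.9% of all genes tested differed for shBRG1 and 2.99% for shMITF. The libraries behind SNAI1 in Hermes 3A held 5 to 29 reads each in the shSCR and shBRG1 groups. No group had 4 or more samples, so no single library was tested as an outlier.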

How the results depend on the processing

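Counting also ZEB1 in 501Mel and SNAI1 in Hermes 3A, which passed the filter through the group where they are high, the number of members called was 3 in 501Mel shBRG1 (1 with a filter of 10 counts in every sample, where ZEB1 was not tested), 1 in 501Mel shMITF (0 with that filter, 2 with all groups of the line in 1 fit, 1 to 2 with a library left out, and not given with DESeq2, whose adjusted p for ZEB1 was NA), 1 in Hermes 3A shBRG1 (0 with that filter and 0 with glmTreat, a test against the fold limit) and 0 in Hermes 3A shMITF (0 to 1 with a library left out). It was 4 for the shBRG1 effect between lines (3 to 4 with a library left out), 1 for the shMITF effect between lines (2 with DESeq2, 0 with no filter, 0 with the replicate block, 0 to 3 with a library left out), 1 for shBRG1 against shMITF effects in 501Mel (2 with DESeq2, 2 with the filter of 10 counts, 1 to 3 with a library left out) and 1 between the scramble groups (2 with library sizes only, 1 to 2 with a library left out). ZEB2 changed sign between lines with library sizes only (-0.20) and the filter of 10 counts (-0.025), and between the 501Mel effects with library sizes only (0.078; -0.41 to 0.059 with a library left out). In Hermes 3A shBRG1 against shMITF it did so with no filter (0.025), the filter of 10 counts (0.010) and the block (0.047; -0.24 to 0.16 with a library left out), as did TWIST1 with no filter (0.0051) and the block (0.036; -0.25 to 0.24 with a library left out). With a library left out, ZEB2 in Hermes 3A shMITF ran from -0.35 to 0.041, ZEB1 in the shBRG1 effect between lines from -1.48 to 2.64 and SNAI1 between the scramble groups from -0.30 to 0.19. The cause was not tested. Replicate numbers were not taken to pair the samples, since no comparison had all same-number correlations above 0.1. With 2 or 3 libraries a group, that check cannot exclude pairing. The block moved TWIST1 in Hermes 3A shMITF to an edgeR adjusted p of 0.0409, and another alternative also brought TWIST1 below 0.05 there. The block moved the SNAI2 shMITF difference between lines to an edgeR adjusted p of 0.0789.

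Over all genes, library sizes only moved the share of calls that were higher from 55.5% to 72.1% in 501Mel shBRG1 (median 0.053 to 0.40), 62.5% to 72.5% in Hermes 3A shBRG1, 45.3% to 56.0% in Hermes 3A shMITF, 44.1% to 34.0% between lines, 42.8% to 58.8% in the shBRG1 effect between lines and 44.2% to 57.3% between the 501Mel effects, and DESeq2 moved the shMITF effect between lines from 72.2% to 56.6%. Calls fell from 1592 to 223 in 501Mel shMITF, 1594 to 602 in Hermes 3A shBRG1 and 1220 to 185 in Hermes 3A shMITF with glmTreat. In 501Mel shMITF they were 2518 with all groups in 1 fit and 575 with pooled controls. With the filter of 10 counts they were 5183 of 8024 in 501Mel shBRG1, 1056 in Hermes 3A shBRG1, 4406 of 7747 between lines and 3558 of 6282 between the scramble groups, and DESeq2 gave 1422 against 576 for the shMITF effect between lines.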
